A study of Solanum lycopersicum with 10 samples.

Results

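Among the 11153 rows tested on a tomato leaf cDNA array, only 2 are labelled with a gene rather than a clone number. They are Carbonic_anhydrase and Chlorophyla/bbindingprotein, and both were taken by name, whatever their values. Leaf RNA was hybridised to 10 two-colour arrays against one pool of every sample in the study. The groups are 3 arrays of wild type control leaves, 2 of wild type systemic wounded leaves, 2 of mutant control leaves and 3 of mutant systemic wounded leaves. Control plants were left unwounded. The systemic wounded leaves were picked from plants that had been wounded. The mutant expresses an antisense Rboh gene. Its promoter, the number of independent lines, plant age, the way of wounding and the time after it are not stated by the labels. Arrays are named by the replicate numbers of their titles.

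Chlorophyll a/b-binding proteins form the antenna of the photosystems. They are encoded in the nucleus, imported into the chloroplast and hold the pigments that pass light energy to the reaction centres. Their transcripts are abundant in green leaves, follow light and the circadian clock, and commonly decline in leaves under wounding or jasmonate treatment. Carbonic anhydrase interconverts carbon dioxide and bicarbonate, and its main leaf form lies in the chloroplast stroma, where the Calvin cycle fixes carbon. In tobacco, a chloroplast carbonic anhydrase also binds salicylic acid, a defence hormone. Rboh proteins are NADPH oxidases of the plasma membrane that make superoxide, a signal in wounding and pathogen defence.

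Which gene of each family is on the array is not stated by the row names. The RefSeq gene table of assembly SLM_r2.1 lists 17 tomato genes with a CAB number as symbol or synonym, among them CAB4, CAB5, CAB11 and Cab-3C. Of these, Cab-1D, the gene with the synonym Cab-1C and CAB1B are 3 adjacent protein-coding genes. Some members of the family have closely alike coding sequences, so a cDNA spot may pick up several of them. How alike the 17 genes are was not tested. The values below are those of the row and not of 1 gene. No probe sequence was used here, so neither name could be checked against its spot. A planned list of photosynthesis genes and lists of leaf cell markers matched 0 further rows, because 0 row names match the gene table.

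All values are log2 ratios with each array's median set to 0 over the 11153 rows. A value of 0 is thus the level, relative to the pool, of the middle row of that array. The deposited medians lay between -0.01 and 0.07, and the interquartile ranges between 0.39 and 0.77. Signal intensity was not analysed here, so how bright either spot was is unknown. Precision is set by the number of arrays. The ratio is read as sample over pool, but the labels name no dyes, and its direction is not settled. Of the array pairs, 2 correlated below -0.3 across rows, at the lowest -0.43, and both involve wild type control replicate 3. The next lowest pair, wild type control 1 with wounded mutant 2, stood at -0.29. Wild type control replicate 3 correlated at 0.33 and 0.20 with controls 1 and 2 of its own group. With wounded wild type arrays 1 and 2 it correlated at 0.14 and 0.27. Whether its ratio runs the other way was not tested. With the sign of all arrays turned, every difference below keeps its size and its p and changes its direction. Every level or rank below the array median then becomes one above it. The labels do not say whether replicates are separate plants. The p-values therefore reflect array-to-array spread, possibly technical in part or whole. In whole leaves, fewer chloroplast-rich cells and less RNA per cell cannot be told apart.

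Of the pair, the chlorophyll a/b-binding protein row was the one that varied. It was lowest in wounded wild type leaves, near the array median in unwounded wild type and wounded mutant leaves, and highest in unwounded mutant leaves. In wild type controls it stood at 0.29, -0.31 and -0.04 on replicates 1, 2 and 3. In wild type systemic wounded leaves it stood at -1.15 and -0.60 on replicates 1 and 2. Both wounded arrays lay below all 3 control arrays, and replicate 1 was the lowest of the 10 arrays.

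In mutant controls, Chlorophyla/bbindingprotein stood at 0.43 and 0.36 on replicates 2 and 3. In mutant systemic wounded leaves it stood at 0.55, -0.35 and -0.16 on replicates 1, 2 and 3. The mutant controls were close together, while the wounded mutant arrays spread on both sides of them and of 0. Replicate 1 of the wounded mutant held the highest value of all 10 arrays.

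The group means were -0.88 ± 0.40 (SD, n = 2) in wounded wild type and -0.02 ± 0.30 (SD, n = 3) in wild type controls. The wounded mutant had a mean of 0.01 ± 0.48 (SD, n = 3) and mutant controls one of 0.40 ± 0.05 (SD, n = 2). In this order from low to high, the first 2 neighbours did not overlap, with a gap of 0.85 against a larger SD of 0.40. The next gap, between wild type controls and the wounded mutant, was 0.04 against an SD of 0.48. The last, between the wounded mutant and the mutant controls, was 0.38 against the same SD, and the arrays overlapped.

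The carbonic anhydrase row stayed within a narrow band. Carbonic_anhydrase stood at -0.13, -0.25 and 0.06 in wild type controls 1, 2 and 3, and at -0.26 and -0.28 in wild type systemic wounded leaves 1 and 2. In mutant controls 2 and 3 it stood at 0.17 and -0.21, and in mutant systemic wounded leaves 1, 2 and 3 at -0.02, 0.05 and -0.21. The highest and lowest arrays, mutant control replicate 2 and wild type systemic wounded replicate 2, were 0.45 apart.

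Its group means ran in the same order as those of the other row. They were -0.27 ± 0.02 (SD, n = 2) in wounded wild type and -0.11 ± 0.16 (SD, n = 3) in wild type controls. In the mutant they were -0.06 ± 0.14 (SD, n = 3) in wounded leaves and -0.02 ± 0.26 (SD, n = 2) in controls. The lowest pair of neighbours did not overlap but differed by only 0.16, about the SD of the controls. The other gaps were 0.05 and 0.04, each below the SD, with overlapping arrays.

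**Figure D1:**
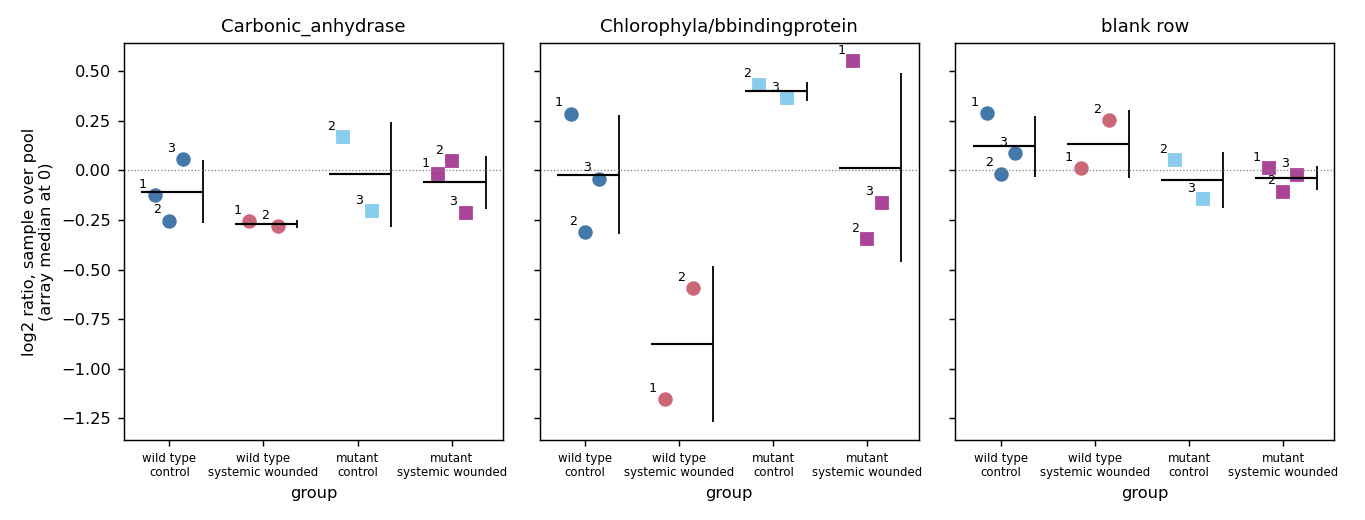
Log2 ratio of leaf sample to pool (vertical axis, array median at 0) for Carbonic_anhydrase, Chlorophyla/bbindingprotein and the blank row in the 4 groups (horizontal axis). Each point is 1 array with its replicate number, horizontal lines are group means and vertical lines are 1 SD on each side. Chlorophyla/bbindingprotein runs from -1.15 to 0.55, while Carbonic_anhydrase and the blank row stay between -0.28 and 0.29.

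A single row named blank shows how far 1 spot without a transcript name moved on the same arrays. It ran from -0.15 to 0.29, a range of 0.44, beside a range of 0.45 for Carbonic_anhydrase. The blank row's means were 0.12 in wild type controls and 0.13 in wounded wild type. In mutant controls and the wounded mutant they were -0.05 and -0.04, and this genotype difference was not tested. The SD over the 10 arrays was 0.14 for the blank row and 0.16 for Carbonic_anhydrase, against a median of 0.36 over the tested rows. The 193 rows marked as failed moved more than the blank row, with a median SD of 0.40 over the arrays and 0.38 within groups. Of the tested rows, 243 varied less than Carbonic_anhydrase and 10909 varied more.

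Chlorophyla/bbindingprotein had an SD of 0.53 over the arrays, above that of 9227 rows and below that of 1925. Within groups its SD was 0.36, close to the median of 0.33 over all rows. The SD of its 4 group means was 0.54, above that of 10343 rows, beside a median of 0.24. For Carbonic_anhydrase the same values were 0.16 within groups and 0.11 between group means. Chlorophyla/bbindingprotein thus ranked higher among all rows in the SD of its group means than in its SD within groups. Averaged over the arrays, both rows lay slightly below the array median, at -0.11 for Carbonic_anhydrase and -0.10 for Chlorophyla/bbindingprotein. With the sign turned, both lay as far above it.

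The rank on each array gives the same picture without the scale of the ratios. For Chlorophyla/bbindingprotein, 113 rows lay lower on wild type systemic wounded replicate 1 and 955 on replicate 2. In wild type controls 1, 2 and 3 there were 8788, 2284 and 5262 lower rows. Every array other than the wounded wild type ones had at least 1720 lower rows.

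In mutant controls 2 and 3, 9702 and 9979 rows lay below Chlorophyla/bbindingprotein. In wounded mutant leaves 1, 2 and 3, the counts were 10338, 1720 and 3623. With the sign turned, 11039 and 10192 rows lay lower on the wounded wild type arrays, and 1443 and 1170 on the mutant controls. The wounded mutant arrays placed the row between the 15.5 and the 92.7 percentile, or between 7.3 and 84.5 with the sign turned.

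Carbonic_anhydrase lay between the 22.8 and the 66.9 percentile on every array, or between 33.1 and 77.2 with the sign turned. The fewest rows lay below it on wild type systemic wounded replicate 2, where there were 2537, and the most on mutant control replicate 2, where there were 7453. On wild type systemic wounded replicate 1 there were 2733, and on mutant control replicate 3 there were 2722. A mutant control and the wounded wild type arrays thus placed it at nearly the same rank.

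**Figure D2:**
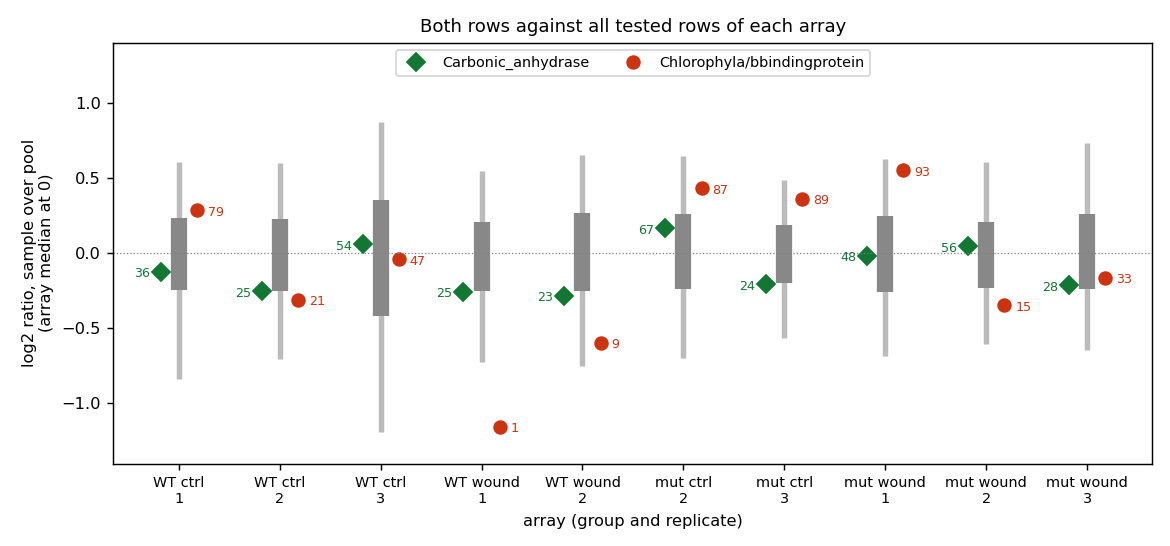
Log2 ratio to the pool (vertical axis) of both rows on each of the 10 arrays (horizontal axis; WT is wild type, mut is mutant, ctrl is control, wound is systemic wounded). Wide grey bars hold the middle 50% of the 11153 rows and thin bars run from the 5% to the 95% point, with each row's percentile printed beside its point. Only wild type systemic wounded replicate 1 has a named row outside the thin bar, with 113 rows below Chlorophyla/bbindingprotein.

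The response to wounding was tested in each genotype with limma's linear model over all rows, in which a row is called at a Benjamini-Hochberg adjusted p under 0.05. In wild type, Chlorophyla/bbindingprotein had a log2 change of -0.85 (SE 0.32, 95% interval -1.54 to -0.17), 1.81-fold lower in wounded leaves. It had an unadjusted p of 0.0189 and an adjusted p of 0.555 in limma, so it was not called. Of all rows, 2.85% were lower at an unadjusted p under 0.05. Only 157 rows had a lower change. Turning the sign gives a change of 0.85.

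Carbonic_anhydrase had a log2 change of -0.16 in wounded wild type (SE 0.24, 95% interval -0.68 to 0.36, limma adjusted p = 0.979). Of the named rows, 0 of 2 were called, beside 0.269% of all rows. In both rows the wounded arrays lay below every control array, where 20.3% of rows did not overlap in either direction. For Carbonic_anhydrase this rested on the centring, at -0.2557 in wounded replicate 1 against -0.2540 in control replicate 2. As deposited, these arrays stood at -0.2243 and -0.2311 and overlapped. Leaving out control replicate 2 gave it a change of -0.24, and leaving out control replicate 3 one of -0.08. Without wild type systemic wounded replicate 1, the change of Chlorophyla/bbindingprotein was -0.57, with an unadjusted limma p of 0.179. Without replicate 2 it was -1.13. Leaving out wild type control replicate 1 gave Chlorophyla/bbindingprotein a change of -0.70, with an unadjusted limma p of 0.0648.

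In the mutant, Chlorophyla/bbindingprotein had a log2 change of -0.38 with wounding (SE 0.32, 95% interval -1.07 to 0.30, limma adjusted p = 1). Carbonic_anhydrase had one of -0.04 (SE 0.24, 95% interval -0.56 to 0.48, adjusted p = 1). Neither was called, as 0% of all rows were, and in neither did the arrays separate, beside 15.2% of rows. That background of 0 called rows was 39 without mutant control replicate 3, 25 with quantile normalization and 18 with a block by description number, and neither named row was among them. For Chlorophyla/bbindingprotein, the change was -0.65 without mutant systemic wounded replicate 1 and -0.20 without replicate 2. Turned, the changes are 0.38 and 0.04.

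Whether wounding acted differently in the genotypes is asked by the interaction, the mutant change minus the wild type change. It was 0.47 for Chlorophyla/bbindingprotein (SE 0.45, 95% interval -0.50 to 1.44, limma adjusted p = 1). For Carbonic_anhydrase it was 0.12 (SE 0.34, 95% interval -0.62 to 0.86, adjusted p = 1). No row of the array was called (0%). For each row the interval holds an equal response, a larger mutant response, and a mutant response smaller by more than the whole wild type change. The value for Chlorophyla/bbindingprotein was 0.19 when wild type systemic wounded replicate 1 was left out, and was 0.75 when replicate 2 was. With the sign turned, the interactions are -0.47 and -0.12.

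Over both genotypes with equal weight, Chlorophyla/bbindingprotein had a log2 change of -0.62 with wounding (SE 0.22, 95% interval -1.10 to -0.13), 1.54-fold lower. Its unadjusted limma p was 0.0166 and its adjusted p 0.553. At an unadjusted p under 0.05, 2.11% of rows were lower. Carbonic_anhydrase had a change of -0.10 (95% interval -0.47 to 0.27, limma adjusted p = 0.999), which was -0.0085 without mutant control replicate 2 and -0.19 without replicate 3. The named rows called were 0 of 2, beside 0.771% of all rows, and wounded and unwounded arrays overlapped in both, where 1.63% of rows did not overlap.

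As a test of each row alone, the treatment labels were exchanged between arrays of the same genotype in all 100 ways. This exact two-sided permutation test gave p = 0.05 for Chlorophyla/bbindingprotein and p = 0.33 for Carbonic_anhydrase. Without wild type systemic wounded replicate 1, Chlorophyla/bbindingprotein had a change of -0.48, with an unadjusted limma p of 0.0867 and an exact p of 0.1. The smallest p the test can give with all arrays is 0.01. It makes no allowance for the other rows of the array or for the other exact tests of single rows.

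Genotype was compared in unwounded leaves first. Chlorophyla/bbindingprotein was higher in the mutant by a log2 difference of 0.42 (SE 0.32, 95% interval -0.27 to 1.11, limma adjusted p = 0.586). Both mutant controls lay above the 3 wild type controls, a separation that 29.2% of rows showed in either direction. Without wild type control replicate 2 the difference was 0.28. Carbonic_anhydrase differed by 0.09 (SE 0.24, 95% interval -0.43 to 0.61, adjusted p = 0.909), and its arrays overlapped. Called rows were 0 of 2, beside 0.493% of all rows. Without mutant control replicate 2, the difference for Carbonic_anhydrase was -0.10, and without replicate 3 it was 0.27.

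In leaves of wounded plants, Chlorophyla/bbindingprotein was higher in the mutant by 0.89 (SE 0.32, 95% interval 0.20 to 1.58), 1.85-fold. Its unadjusted limma p was 0.0152 and its adjusted p 0.259, so it was not called. At an unadjusted p under 0.05, 7.18% of rows were higher. Carbonic_anhydrase was higher by 0.21 (SE 0.24, 95% interval -0.31 to 0.73, adjusted p = 0.765). Called rows were 0 of 2, beside 0.672% of all rows. All 3 mutant arrays lay above both wild type arrays in each row, and 33.9% of rows were separated in 1 direction or the other. This comparison shares its wild type wounded arrays with that of wounding in wild type, so the values are not separate evidence. Leaving out mutant systemic wounded replicate 1 gave Chlorophyla/bbindingprotein a difference of 0.62, with an unadjusted limma p of 0.066. Without wild type systemic wounded replicate 1, the difference of Chlorophyla/bbindingprotein was 0.61, with an unadjusted limma p of 0.155.

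Over both treatments, Chlorophyla/bbindingprotein was 1.57-fold higher in the mutant, a log2 difference of 0.65 (SE 0.22, 95% interval 0.17 to 1.14). Its unadjusted limma p was 0.0122 and its adjusted p 0.113. This contrast had many small p-values, with 12.3% of rows higher at an unadjusted p under 0.05. The row's difference was exceeded by 863 rows. Carbonic_anhydrase was higher by 0.15 (95% interval -0.22 to 0.52, limma adjusted p = 0.64), by 0.054 without mutant control replicate 2 and by 0.24 without replicate 3. Called rows were 0 of 2, beside 4.47% of all rows, and the genotypes' arrays overlapped in both, where 8.63% of rows did not overlap. The 499 rows behind that share of calls became 105 without wild type systemic wounded replicate 1, 156 without mutant control replicate 2, and 0 with the sign of wild type control replicate 3 turned.

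With genotype labels exchanged between arrays of the same treatment in all 100 ways, the exact permutation p was 0.02 for Chlorophyla/bbindingprotein and 0.17 for Carbonic_anhydrase. Without adjustment for the other exact tests of single rows, the difference of Chlorophyla/bbindingprotein thus passed 0.05, while over all rows it did not. The exact p was no longer under 0.05 when any 1 array of the wounded wild type or mutant control groups was dropped. It stayed under 0.05 when any other array was dropped. Dropping an array leaves fewer arrangements, so these p-values cannot be compared directly with 0.02. The difference was smallest, at 0.51, when replicate 1 of the wounded wild type was dropped. Turning the sign makes the mutant the lower genotype, by the same amounts.

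**Figure D3:**
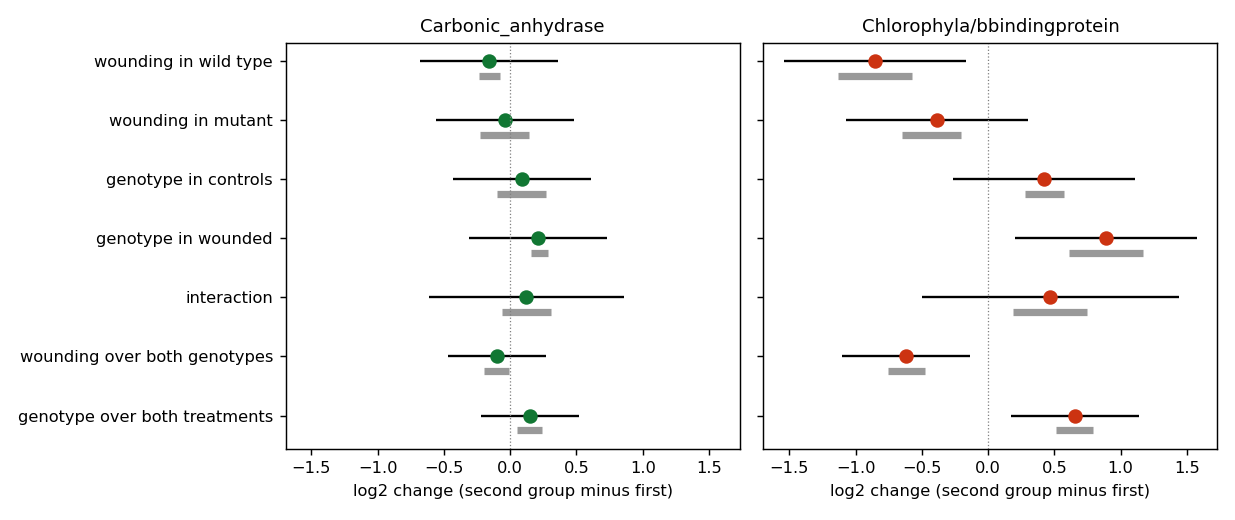
Log2 change (horizontal axis) of Carbonic_anhydrase and Chlorophyla/bbindingprotein in the 7 comparisons (vertical axis), with points for limma's estimates and black lines for 95% intervals. Grey bars span the estimates with each of the 10 arrays left out in turn. For Chlorophyla/bbindingprotein the intervals of 4 comparisons lie on 1 side of 0, those of wounding in wild type, wounding over both genotypes, genotype in wounded leaves and genotype over both treatments, while every interval of Carbonic_anhydrase spans 0. Without wild type systemic wounded replicate 1, none of these 4 has an unadjusted p under 0.05.

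Whether the rows responded unequally was tested on their difference per array, Chlorophyla/bbindingprotein minus Carbonic_anhydrase. In wild type controls it was 0.41, -0.06 and -0.10, and in wounded wild type -0.90 and -0.31. In mutant controls it was 0.27 and 0.57, and in the wounded mutant 0.57, -0.39 and 0.05. Wounding shifted the difference by -0.52 over both genotypes, with an exact permutation p of 0.09. The genotype shifted it by 0.51 over both treatments, with an exact permutation p of 0.08. Adjusted over these 2 tests, both p-values were 0.09. Neither test passed 0.05, which does not show that the rows responded alike.

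Across the 10 arrays the rows had a Pearson's r of 0.53 (permutation p = 0.104) and a Spearman's rho of 0.65 (permutation p = 0.050). Without wild type control replicate 3 and mutant control replicate 2, the arrays farthest from the median of Carbonic_anhydrase, r was 0.46 (exact p = 0.238). After the group means were subtracted, r was 0.14, a description given without a test. With so few arrays per group, it cannot show how far the rows deviated together within groups. The correlation of the named rows was the only relation between measures tested across arrays, and the arrays share the pool. Among all rows, 614 were more like Carbonic_anhydrase than Chlorophyla/bbindingprotein was. Seen from the other side, 1054 rows were more like Chlorophyla/bbindingprotein than Carbonic_anhydrase was.

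**Figure D4:**
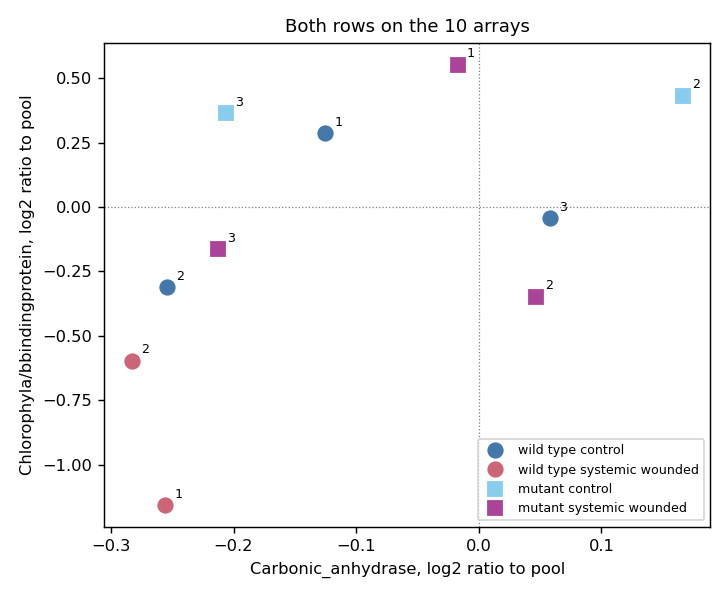
Chlorophyla/bbindingprotein (vertical axis) against Carbonic_anhydrase (horizontal axis), both as log2 ratio to the pool, on the 10 arrays, with replicate numbers beside the points. The wounded wild type arrays lie at the lower left, at -0.26 and -1.15 and at -0.28 and -0.60, and the Pearson's r is 0.53.

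The clones whose profiles over the 10 arrays were closest to each row were found by Pearson's r among the other 11152 rows. For Chlorophyla/bbindingprotein these were cLER1G7 (r = 0.96) and cLET44F10 (r = 0.95). The lowest r with 1 array left out was 0.916 for cLER1G7 and 0.914 for cLET44F10. By Spearman's rho, 0 rows were closer than cLER1G7 and 3 closer than cLET44F10. After group means were subtracted, 95 rows were closer than cLER1G7 and 41 closer than cLET44F10 by Pearson's r. The files do not pair these identifiers with genes.

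Clone cLET44F10 followed the row closely in wounded wild type leaves, at -1.17 and -0.47, and stood at 0.26 and 0.01 in mutant controls. Clone cLER1G7 stood at -0.76 and -0.33 in wounded wild type and at 0.31 and 0.15 in mutant controls. Both clones had their lowest array where Chlorophyla/bbindingprotein had its lowest.

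The most opposite profiles belonged to cLEC35K22 and cLEE3A1, with r of -0.95 for each. Clone cLEC35K22 was below 0 on every array, or above it with the sign turned, and closest to 0 in wounded wild type leaves, at -0.38 and -0.90. Its means were -1.76 in wild type controls, -1.99 in the wounded mutant and -2.51 in mutant controls. In all, 92 rows had an r over 0.8 with Chlorophyla/bbindingprotein and 80 had one under -0.8. The middle 90% of rows lay between -0.62 and 0.63. With 10 arrays and so many rows, high values occur at both ends, and these clones are a description of the arrays only.

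For Carbonic_anhydrase the closest clones were cLEG28A13 (r = 0.90) and cLEG4F13 (r = 0.88), and the most opposite were cLEC33B2 and cLED22E3 (r = -0.92 each). Clone cLEG28A13 moved over a similarly small span, with an SD of 0.17 over the arrays. By Spearman's rho, 39 rows were closer than cLEG28A13 and 34 closer than cLEG4F13. Fewer rows reached the same likeness as for the other row: 23 had an r over 0.8 and 22 had one under -0.8.

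**Figure D5:**
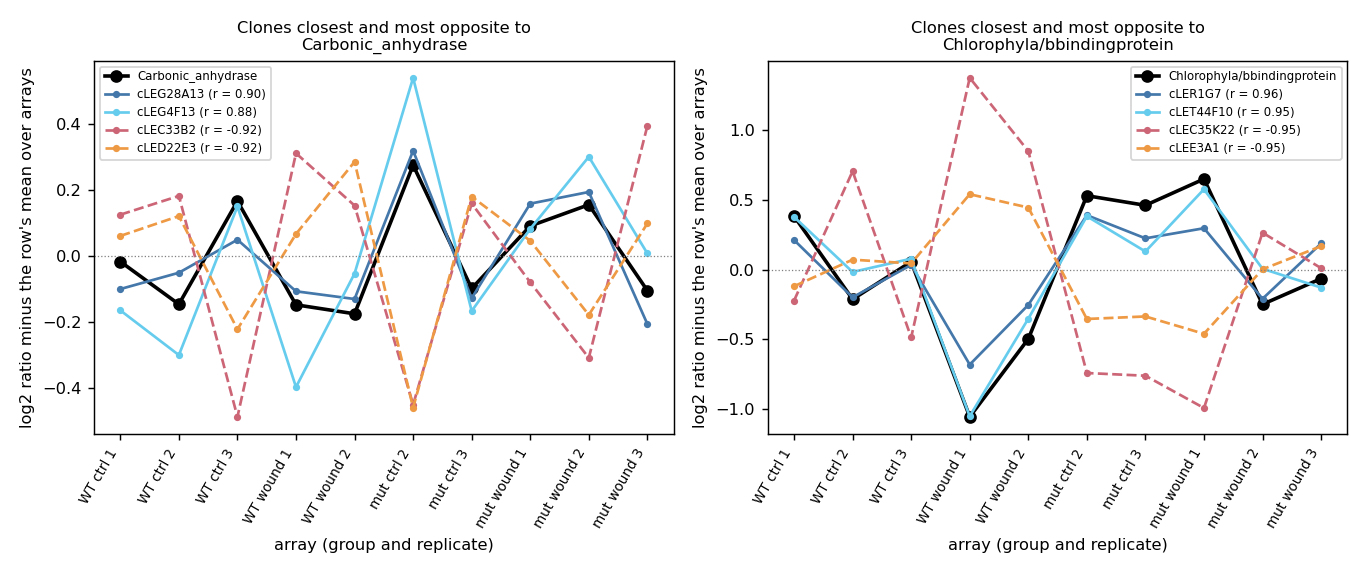
Profiles over the 10 arrays (horizontal axis) of each named row in black and of the 2 closest (solid) and 2 most opposite clones (dashed), as log2 ratio minus the row's own mean over arrays (vertical axis). On the right, Chlorophyla/bbindingprotein and its closest clones share a minimum on wild type systemic wounded replicate 1.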

How the data were processed

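Total RNA of tomato leaves was measured on 10 two-colour arrays, with the sample in channel 2 and the pool in channel 1, per the labels. The values deposited by the authors are log2 ratios, judged from their form: on each array 99.7% to 100.0% of values are the log2 of a ratio with 3 decimals, within 0.02 thousandths. Deposited array means lay between -0.0041 and 0.0035. Image software, background correction and scaling are not stated by the labels. The table had 11347 rows and 0 missing values, and 193 rows marked as failed and 1 blank were left out of the tests.

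Array medians were set to 0 over the tested rows. A model of 4 group means was fitted to all rows and 10 arrays with limma 3.58.1 in R 4.3.3 (two-sided, 6 residual and 6.45 prior degrees of freedom), and tested on simulated data. Correlations used 100000 permutations, or exact enumeration, in scipy 1.17.1. Plots were drawn with matplotlib 3.10.9. The members and lists were chosen with earlier results of these data known. Besides both members, the text names the 2 clones of highest and of lowest Pearson's r with each. Alternatives were no centring, quantile and scale normalization, array weights, trend and robust eBayes, fits to the compared groups, replicate blocks, kept failed rows, exact tests and each array left out.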

Additional observations from a re-analysis of the deposited data

How the results depend on the processing

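For the 14 contrasts of both rows, 136 of 140 values with an array left out kept their direction and their side of the threshold. Under other settings 137 of 138 did. No contrast was called in the main fit, so keeping the side of the threshold meant staying uncalled. The count does not register an unadjusted p that rose above 0.05, as for Chlorophyla/bbindingprotein without wild type systemic wounded replicate 1. The exception under other settings was the exact permutation test of genotype for Chlorophyla/bbindingprotein. At the same log2 difference of 0.65 it passed 0.05, without adjustment for the other exact tests. Direction changed for Carbonic_anhydrase alone: with single arrays removed, wounding in the mutant ran from -0.23 to 0.15, genotype in controls from -0.10 to 0.27 and the interaction from -0.065 to 0.31. The correlation of the rows ran from 0.43 to 0.64 and passed only without mutant systemic wounded replicate 2 (r = 0.63, permutation p = 0.0417). The wounding shift of their difference ran from -0.66 to -0.37 and passed only without mutant systemic wounded replicate 1 (-0.64, exact p = 0.0167). The cause of these changes was not tested. Turning the sign of wild type control replicate 3 alone, an alternative chosen after seeing the data, gave -0.88 for Chlorophyla/bbindingprotein with wounding in wild type and called neither row. Over all rows, that turn left 10 calls for genotype in wounded leaves (75 otherwise), 1 for wounding in wild type (30), 3 for wounding over both genotypes (86) and 0 for genotype in controls (55). Exact tests with each array left out, also added then, gave p-values of 0.0333 to 0.125 for genotype and 0.0167 to 0.1 for wounding in Chlorophyla/bbindingprotein.

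Whether replicate numbers pair the arrays could not be settled. Of 12 pairs of equal title number in different groups, 3 had residuals correlated over 0.1, as did 5 of 13 by description number. The median correlation was -0.11 by either numbering, against 0.11 in 25 pairs of unequal title number and 0.05 in 24 of unequal description number. In groups of 2 arrays the residuals mirror each other, so these values cannot exclude pairing. A block by title or description number gave a change of -0.91 or -0.90 for Chlorophyla/bbindingprotein with wounding in wild type (limma adjusted p = 0.684 or 0.631), and called neither row in any contrast. The filter on missing values changes nothing, since there were none. Groups of 2 and 3 arrays limit every statement, and signal over background is unknown.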
